A study of Mus musculus with 12 samples.

Results

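The genes described are 10 members of the bone morphogenetic protein (BMP) pathway, taken by name from the 24060 genes listed for each tumor: the ligands Bmp2, Bmp4, Bmp5, Bmp6 and Bmp7, the secreted antagonists Nog and Grem1, and the target genes Id1, Id2 and Id3. All 10 were listed in every tumor. RNA had been taken from 12 rhabdoid tumors. Their hosts were P0-CreC;Smarcb1flox/flox animals, whose Smarcb1 alleles both carry loxP sites and whose P0 promoter drives Cre recombinase in neural crest cells and later in the Schwann cell lineage. The animals were on an FVB/N background, every tumor carried the same genotype, and no untreated or normal tissue was analysed here. By the location given in the labels, 4 tumors were Retro-orbital, 3 Cheek, 3 Meninges, 1 Vestibular N and 1 Trigeminal N. The age of the animal at each tumor was not given in the labels.

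BMP ligands are secreted dimers that bring type I and type II receptor kinases together on the receiving cell. The receptors phosphorylate Smad1, Smad5 and Smad9, which enter the nucleus with Smad4 and switch on targets. Among these are the Id genes, which encode helix-loop-helix proteins without a DNA-binding region that hold other helix-loop-helix factors away from DNA. Noggin (Nog) and gremlin (Grem1) bind ligands outside the cell and keep them from the receptors. In the embryonic head, BMP signals take part in induction of the neural crest and in the patterning of facial and meningeal mesenchyme. Id genes are also used by vessels, leukocytes and epithelia, and they answer to signals other than BMP.

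Smad complexes bind GC-rich letters in the control regions of several Id genes. RefSeq promoter windows on GRCm38.p6 were at hand for 6 of the 10 members (Bmp4, Bmp5, Bmp6, Grem1, Id2 and Id3), and the 250 bases before the RefSeq start of each were searched for GGCGCC, which reads the same on both strands. That start can differ from the one in the GENCODE M21 annotation: 161 bases of the Id2 window and all 250 of the Id3 and Bmp6 windows lie in an untranslated exon of a GENCODE transcript of the gene, so they are not shown. Of 32851 promoter windows of that length, 9.59% held the letters. Of the 6 members, Id2 and Grem1 held them at 1 place each, 231 and 78 bases before the RefSeq start. The window of Grem1 is shown with the match in capitals, and that of Bmp4, which held no match, because the relation to the Id genes turns on it. They lie at chr2:113758649-113758898 (Grem1, minus strand) and chr14:46390670-46390919 (Bmp4, minus strand), and each is written 5′ to 3′ along its gene.
Grem1: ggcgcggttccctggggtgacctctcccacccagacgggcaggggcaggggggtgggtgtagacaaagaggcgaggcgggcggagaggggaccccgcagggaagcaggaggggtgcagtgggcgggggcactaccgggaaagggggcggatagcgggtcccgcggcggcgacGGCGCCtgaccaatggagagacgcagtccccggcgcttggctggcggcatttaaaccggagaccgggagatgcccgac
Bmp4: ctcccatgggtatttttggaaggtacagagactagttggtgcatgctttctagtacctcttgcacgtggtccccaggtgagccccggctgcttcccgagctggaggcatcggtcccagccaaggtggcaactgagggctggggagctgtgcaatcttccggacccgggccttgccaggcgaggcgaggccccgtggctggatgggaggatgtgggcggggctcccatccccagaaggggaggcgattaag
The shorter letters GTCTG, or CAGAC on the other strand, stood at 2 places in the Id3 window, at 1 place in those of Bmp5, Bmp6 and Grem1 and in neither of the Bmp4 and Id2 windows, and were found in 42.2% of all windows. A match is a description of these letters only.

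Values are RPKM, fragments per kilobase of transcript scaled to the fragments of a tumor, so levels can be set side by side between genes. The totals behind them, recovered from the steps between low values, ran from 13206168 to 57128422 fragments (median 27929721). These totals are inferred and are not the read numbers given in the study's methods. The lowest value of a member rested on 5 fragments for Bmp5 and Grem1, 6 for Bmp7, 17 for Nog, 28 for Bmp2, 58 for Bmp6, 88 for Id1, 99 for Bmp4, 563 for Id2 and 1213 for Id3. These fragment numbers rest on lengths inferred from the same values. Among the members, only the lengths of Bmp7 and Id1 were those of a GENCODE transcript. Smarcb1, the deleted gene, was listed between 1.70 RPKM (Vestibular N 1) and 6.31 RPKM (Meninges 3). This value covers the whole gene and can include RNA of host cells and RNA transcribed from a recombined allele. Labels give 9 identifier codes for the 12 tumors: Cheek 1 shares one with Meninges 1, Cheek 2 with Cheek 3, and Retro-orbital 3 with Trigeminal N 1, and whether a shared code means the same animal is not stated. Cheek 2 and Cheek 3 were the most alike of 66 pairs of tumors (Pearson's r = 0.984 over 15043 genes, against 0.921 for the next pair), and their fragments over the 10 members differed by more than sampling noise (chi-square 12.1 per degree of freedom). They were therefore not counted as 1 library deposited 2 times, but this does not show that they are independent replicates. Nothing says that all tumors came from separate animals, so the p-values measure the spread between these tumors.

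Bmp4, at chr14:46383520-46390669 on the minus strand of GRCm38, encodes a ligand with roles in patterning the early head, teeth and limbs. It was the ligand with the highest single value and reached at least 1 RPKM in all 12 tumors. In the Retro-orbital tumors Bmp4 was 1.83, 2.34, 9.26 and 4.27 RPKM (tumors 1 to 4). In the Cheek tumors it was 302.68, 16.68 and 16.03 RPKM, and in the Meninges tumors 49.21, 1.95 and 31.33 RPKM. Vestibular N 1 had 105.08 RPKM and Trigeminal N 1 had 23.43 RPKM. All 4 Retro-orbital tumors lay below all 3 Cheek tumors, an order that 5.72% of the 14745 genes tested by location shared, while Meninges 2 lay among the Retro-orbital tumors. The highest value was 165 times the lowest, and its SD on the log2(RPKM + 1) scale, 2.13 (n = 12), was larger than that of 99.0% of the genes tested.

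Bmp5, at chr9:75775364-75900310, and Bmp7, at chr2:172868012-172940321, encode ligands of the same subgroup as Bmp6, with roles in skeletal and kidney development. Bmp5 was 4.54, 29.10, 21.92 and 0.48 RPKM in Retro-orbital tumors 1 to 4, 7.17, 0.38 and 0.15 RPKM in the Cheek tumors, 112.91, 0.47 and 32.56 RPKM in the Meninges tumors, 2.09 RPKM in Vestibular N 1 and 3.90 RPKM in Trigeminal N 1. Each of the 3 replicated locations held at least 1 tumor under 1 RPKM, and the whole span was 754-fold, the widest of the members, with 5 fragments at its lower end. Bmp7 was 0.48, 0.08, 9.57 and 2.11 RPKM in the Retro-orbital tumors, 9.36, 0.05 and 0.68 RPKM in the Cheek tumors, 32.69, 0.88 and 4.18 RPKM in the Meninges tumors, 6.70 RPKM in Vestibular N 1 and 4.29 RPKM in Trigeminal N 1. Meninges 1 had the highest value of both genes, and Cheek 2 and Cheek 3 were among the lowest.

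Bmp6, at chr13:38345107-38500302, is known for its part in iron control by the liver and in cartilage. Bmp6 was 29.83, 0.82, 12.29 and 10.96 RPKM in the Retro-orbital tumors, 1.13, 23.31 and 19.39 RPKM in the Cheek tumors and 6.55, 1.88 and 3.85 RPKM in the Meninges tumors. It was 1.21 RPKM in Vestibular N 1 and 2.74 RPKM in Trigeminal N 1. Cheek 1, the tumor highest in Bmp4, had the second lowest Bmp6. Bmp2, at chr2:133552159-133562885, a ligand of bone and heart valve formation close in sequence to Bmp4, was the lowest ligand by its highest value. It ran from 0.31 RPKM (Cheek 2) to 3.36 RPKM (Meninges 3) with a median of 1.27 RPKM, and 7 of 12 tumors reached 1 RPKM. Retro-orbital tumors spanned 0.55 to 2.66 RPKM, and the 3 locations overlapped.

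**Figure D1:**
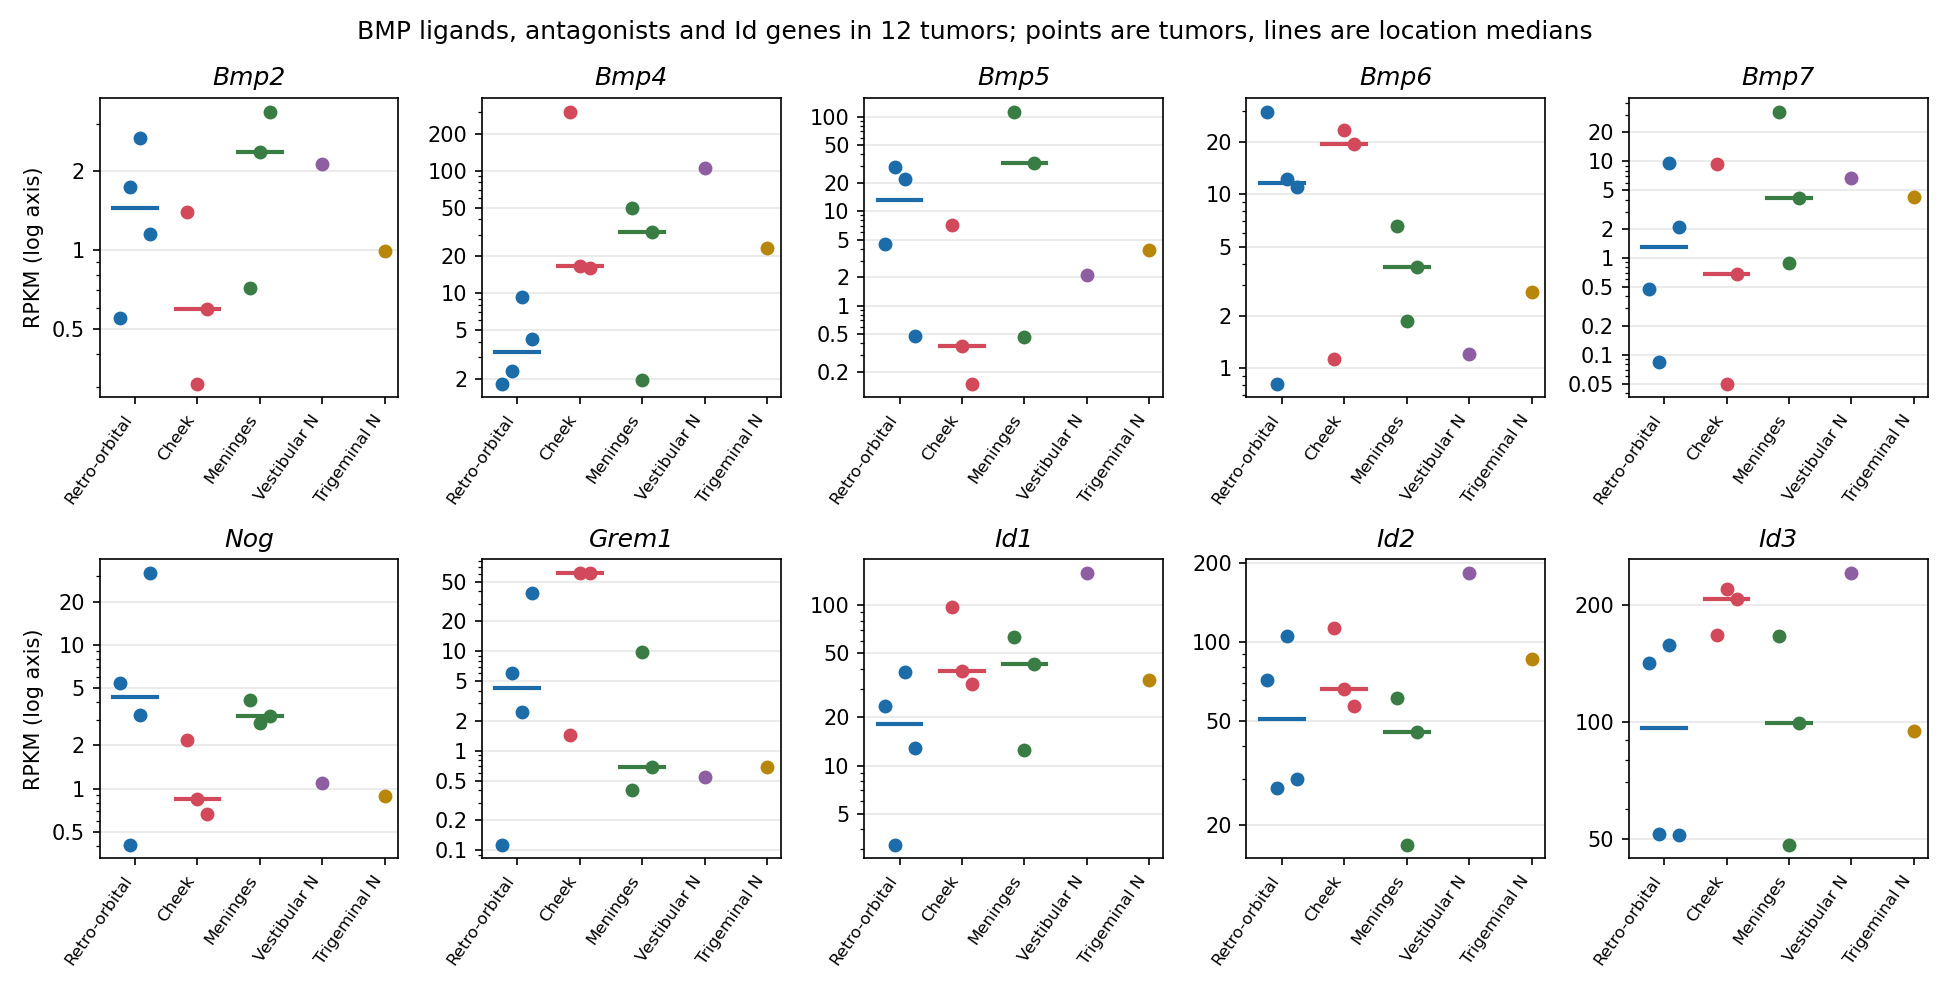
RPKM of each of the 10 genes (log axis) in the 12 tumors by location, with each point a tumor and each line the median of a location with 3 or 4 tumors. The ligands and antagonists spread over 10.8-fold (Bmp2) to 754-fold (Bmp5), against 4.99-fold for Id3, and the Cheek points of Id3 stand just above every Retro-orbital and Meninges point, an order that quantile normalization and median-ratio rescaling undid.

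Different ligands led in different tumors. Summed over the 5 ligands, transcripts ran from 7.53 RPKM (Meninges 2) to 321.7 RPKM (Cheek 1). Bmp6 was the leading ligand in 4 tumors, Retro-orbital 1 and 4 and Cheek 2 and 3, with 52.6% to 80.1% of the sum. Bmp5 led in 4 others, Retro-orbital 2 and 3 and Meninges 1 and 3, with 39.4% to 85.4%. Bmp4 led in 3, with 94.1% of the sum in Cheek 1, 89.7% in Vestibular N 1 and 66.3% in Trigeminal N 1, and Bmp2 led in 1, with 31.3% of the low sum of Meninges 2. The lead was narrow in Meninges 3, with 43.3% Bmp5 and 41.6% Bmp4, and in Meninges 2, where Bmp4 had 25.8% and Bmp6 24.9%. Tumors of a single location thus had different leading ligands, and tumors of different locations shared one.

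**Figure D2:**
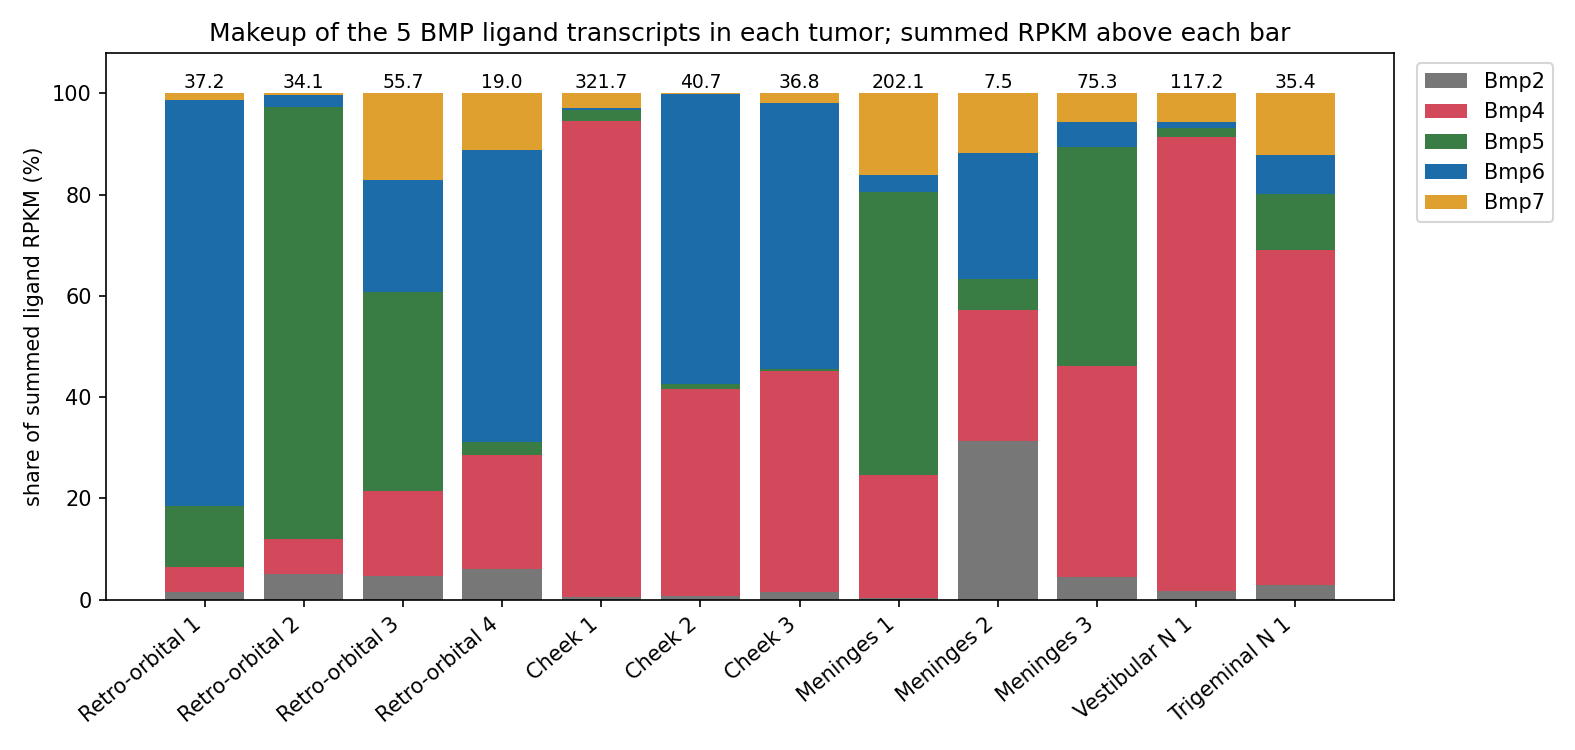
Share of each ligand in the summed RPKM of the 5 ligands (vertical axis, percent) in each of the 12 tumors, with the sum in RPKM above each bar. Bmp4 makes up 94.1% in Cheek 1 and 89.7% in Vestibular N 1, Bmp5 85.4% in Retro-orbital 2, and Bmp6 80.1% in Retro-orbital 1.

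The antagonists were as uneven. Grem1, at chr2:113746164-113758646, was 0.11, 6.02, 2.47 and 38.28 RPKM in the Retro-orbital tumors, 1.44, 61.47 and 60.89 RPKM in the Cheek tumors, 0.40, 9.74 and 0.69 RPKM in the Meninges tumors, 0.54 RPKM in Vestibular N 1 and 0.69 RPKM in Trigeminal N 1. The 3 highest tumors were Cheek 2, Cheek 3 and Retro-orbital 4, and 5 tumors were under 1 RPKM. Nog, at chr11:89300638-89302332, was 5.42, 0.41, 3.27 and 31.70 RPKM in the Retro-orbital tumors, 2.18, 0.85 and 0.67 RPKM in the Cheek tumors, 4.12, 2.87 and 3.19 RPKM in the Meninges tumors, 1.10 RPKM in Vestibular N 1 and 0.88 RPKM in Trigeminal N 1. Retro-orbital 4 stood far above the other tumors in Nog. The sum of Nog and Grem1 exceeded the sum of the 5 ligands in 4 of 12 tumors, 3.69 times in Retro-orbital 4, 1.53 times in Cheek 2, 1.67 times in Cheek 3 and 1.68 times in Meninges 2. At the other end, ligand transcripts were 88.7 times the antagonist transcripts in Cheek 1 and 71.7 times in Vestibular N 1. These are ratios of transcripts and not of proteins.

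Each Id gene reached at least 1 RPKM in all 12 tumors. Id3, at chr4:136143497-136145755, was the highest of the 3 in 12 of 12 tumors, and Id2, at chr12:25093799-25097140, exceeded Id1, at chr2:152736251-152737410, in 11 of 12. Id1 was 23.52, 3.20, 38.46 and 12.80 RPKM in the Retro-orbital tumors, 96.73, 38.89 and 32.27 RPKM in the Cheek tumors, 63.55, 12.54 and 43.07 RPKM in the Meninges tumors, 158.73 RPKM in Vestibular N 1 and 34.28 RPKM in Trigeminal N 1. Id2 was 71.55, 27.84, 105.43 and 29.99 RPKM in the Retro-orbital tumors, 112.80, 65.95 and 56.85 RPKM in the Cheek tumors, 61.09, 16.83 and 45.27 RPKM in the Meninges tumors, 183.65 RPKM in Vestibular N 1 and 85.85 RPKM in Trigeminal N 1. Id3 was 142.11, 51.58, 157.50 and 51.38 RPKM in the Retro-orbital tumors, 166.91, 220.19 and 206.43 RPKM in the Cheek tumors, 165.94, 48.40 and 99.45 RPKM in the Meninges tumors, 241.65 RPKM in Vestibular N 1 and 94.91 RPKM in Trigeminal N 1. The same 3 tumors, Retro-orbital 2, Retro-orbital 4 and Meninges 2, were the lowest in each Id gene, and Vestibular N 1 was the highest in each. In 12 tumors of bulk tissue, fewer cells of a type and less RNA per cell cannot be told apart.

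Whether the members differ between locations was tested with limma on log2(RPKM + 1) in the 10 tumors of the 3 replicated locations, over the 14745 genes that reached 1 RPKM in 3 tumors or more. All 10 members passed this minimum. Of all genes tested, 6 (0.0407%) passed the F test over the 3 locations at an adjusted p of 0.05, and 0 of 10 members did. At an unadjusted p under 0.05, 2110 genes passed. The smallest adjusted p of a member was 0.367, for Bmp4 (limma F test). Pairwise, 0.0271% of genes passed in Cheek minus Retro-orbital, 0.0203% in Meninges minus Retro-orbital and 0.0475% in Meninges minus Cheek, none of them a member. The largest difference among the members was Bmp4 in Cheek minus Retro-orbital, 3.24 on the log2 scale (SE 1.20, limma adjusted p = 0.341). Means were 112 ± 165 RPKM (SD, n = 3) in Cheek and 4.43 ± 3.39 RPKM (SD, n = 4) in Retro-orbital tumors, and Cheek 1 alone set the Cheek mean. Bmp5 differed by 2.92 (SE 1.64, limma adjusted p = 0.384) and Grem1 by -2.85 (SE 1.55, limma adjusted p = 0.369) in Meninges minus Cheek. None of these differences passed the adjustment over all genes. With the shared identifier code as a random block, Bmp4 and Bmp5 passed the F test (limma adjusted p = 0.0104 and 0.0133), among 2802 of the 14745 genes. In the same fit 4 members passed in Meninges minus Cheek, among 4243 of the 14745 genes. They were Bmp4 at -2.49 on the log2 scale (limma adjusted p = 0.0047), Bmp5 at 3.63 (0.0040), Bmp7 at 1.61 (0.043) and Id2 at -0.91 (0.026). The block correlation, 0.93, rested only on Cheek 1 with Meninges 1 and Cheek 2 with Cheek 3. With it the SE of Bmp4 in Meninges minus Cheek fell from 1.28 to 0.48. So many genes passed that a call in this fit is not particular to the members.

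Id3 was the member whose deposited values separated a location, by a small margin that was lost with 2 other scalings. The 3 Cheek tumors, from 166.91 to 220.19 RPKM, lay above all Retro-orbital and Meninges tumors, the nearest being Meninges 1 at 165.94 RPKM, although Vestibular N 1 was higher still. After quantile normalization the lowest Cheek tumor was at 166 and Meninges 1 at 172, and after median-ratio rescaling it was at 153 and Retro-orbital 3 at 167. A like separation of the Cheek tumors held for 2.56% of all genes tested. In the fit, Id3 was 1.15 higher in Cheek than in Retro-orbital tumors on the log2 scale (SE 0.51, limma adjusted p = 0.412), and Id1 was 1.72 higher (SE 0.79, limma adjusted p = 0.432), and neither passed. Over all genes, the median difference was -0.015 in Cheek minus Retro-orbital, 0.13 in Meninges minus Retro-orbital and 0.16 in Meninges minus Cheek, and after quantile normalization it was 0.039, 0.016 and -0.020.

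How the ligands and antagonists relate to the Id genes was asked over all 12 tumors, with Pearson's r and Spearman's rho of log2(RPKM + 1) for 21 pairs and permutation tests with 100000 resamples (two-sided). The pairs were chosen with earlier results of these data known, so this adjustment covers only their number, and the adjustment over all genes is that of the regression given after it. Of the 21 pairs, 1 passed at an adjusted p of 0.05 over the 21 pairs. Bmp4 and Id1 rose together, with r = 0.855 (permutation p = 0.00029, adjusted over the 21 pairs 0.0061) and rho = 0.909 (permutation p = 5.0e-05, adjusted 0.0010). In the Cheek tumors and in the Meninges tumors the order of Bmp4 was also the order of Id1, but in the Retro-orbital tumors Retro-orbital 1 had the lowest Bmp4 and the second highest Id1. Locations hold 3 or 4 tumors, too few for a correlation within a location. Among 15042 genes, Id1 had the 43rd highest r with Bmp4, and the median r of all genes with Bmp4 was 0.14. Bmp4 with Id2 gave r = 0.695 (permutation p = 0.012, adjusted 0.126) and with Id3 r = 0.619 (permutation p = 0.033, adjusted 0.174), which did not pass.

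The correlation of Bmp4 with Id1 held its direction when tumors were left out, while its call depended on the fit. Without Cheek 1 and Retro-orbital 1, the 2 tumors farthest from the median of Bmp4, r was 0.920 (permutation p = 8.0e-05). Leaving out each tumor in turn gave r between 0.83 and 0.90, with adjusted p up to 0.0498 (without Vestibular N 1). With 1 tumor for each of the 9 identifier codes r was 0.848 (exact permutation p = 0.0032), and the adjusted p over the 21 pairs was then 0.068. In a limma regression of all genes on Bmp4, Id1 rose by 0.557 log2 units per log2 unit of Bmp4 (SE 0.097, limma adjusted p = 0.046 over 15042 genes), and 0.359% of genes passed in either direction, 0.226% with a positive slope. This call was lost without the minimum on low values (limma adjusted p = 0.071), with the identifier code as a block (0.084) and when any 1 of 9 of the 12 tumors was left out, with the highest adjusted p, 0.147, without Vestibular N 1. It was kept without Retro-orbital 3, Cheek 2 or Cheek 3.

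**Figure D3:**
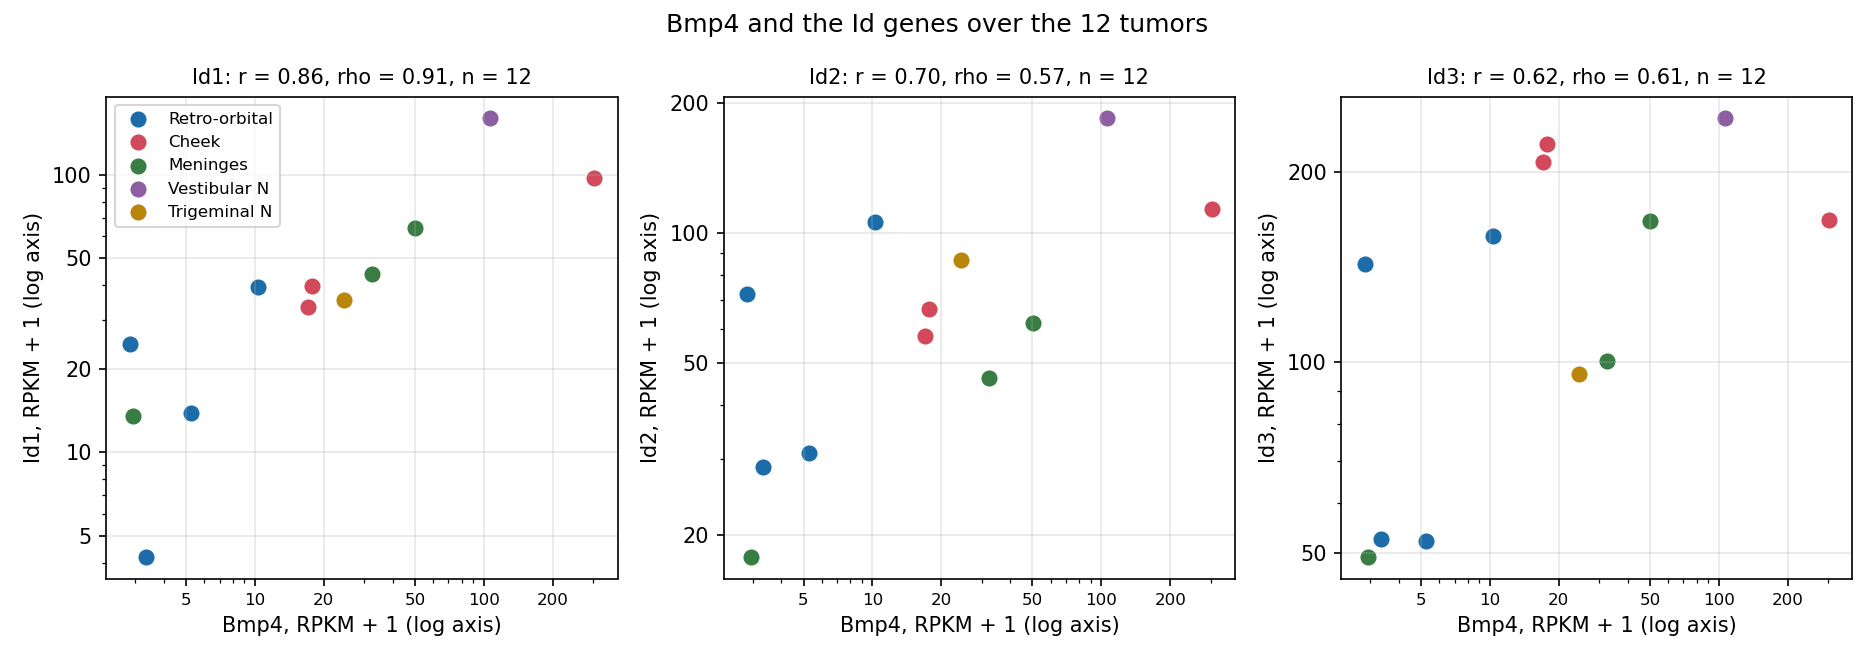
Id1, Id2 and Id3 (vertical axes) against Bmp4 (horizontal axis) as RPKM + 1 on log axes, with each point 1 of 12 tumors coloured by location. Id1 follows Bmp4 from Retro-orbital 2 at the lower left to Cheek 1 and Vestibular N 1 at the upper right (r = 0.855), while Id2 (r = 0.695) and Id3 (r = 0.619) scatter more.

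None of the other ligands and antagonists had a relation to an Id gene past the threshold. Bmp7 came nearest, with r = 0.647 for Id1 (permutation p = 0.022, adjusted 0.154), 0.483 for Id2 and 0.309 for Id3. For Bmp2, Bmp5 and Bmp6, r lay between -0.349 (Bmp2 with Id3) and 0.346 (Bmp6 with Id3). For the antagonists, r with the Id genes lay between -0.436 (Grem1 with Id2) and -0.119, and the smallest permutation p of these pairs was 0.154 (adjusted 0.540). By rank the sign was not uniform. The rho of Nog was 0.049 with Id1, 0.007 with Id2 and -0.287 with Id3, and that of Grem1 was -0.413, -0.420 and -0.077. Without Cheek 2 and Cheek 3, 2 of the tumors highest in Grem1, Grem1 and Id3 gave r = -0.778 (adjusted p = 0.036 over the 21 pairs, permutation test), against -0.119 with them. Regressions of all genes gave 0% of genes past the threshold on Bmp2, 0% on Bmp5, 0% on Bmp6 and 0% on Nog (limma, with 1547, 987, 1057 and 1235 genes at an unadjusted p under 0.05), 4.5% on Bmp7 and 0.193% on Grem1, and no Id gene was among those called. On Bmp7, Id1 had a slope of 0.576 (SE 0.192, limma adjusted p = 0.10).

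**Figure D4:**
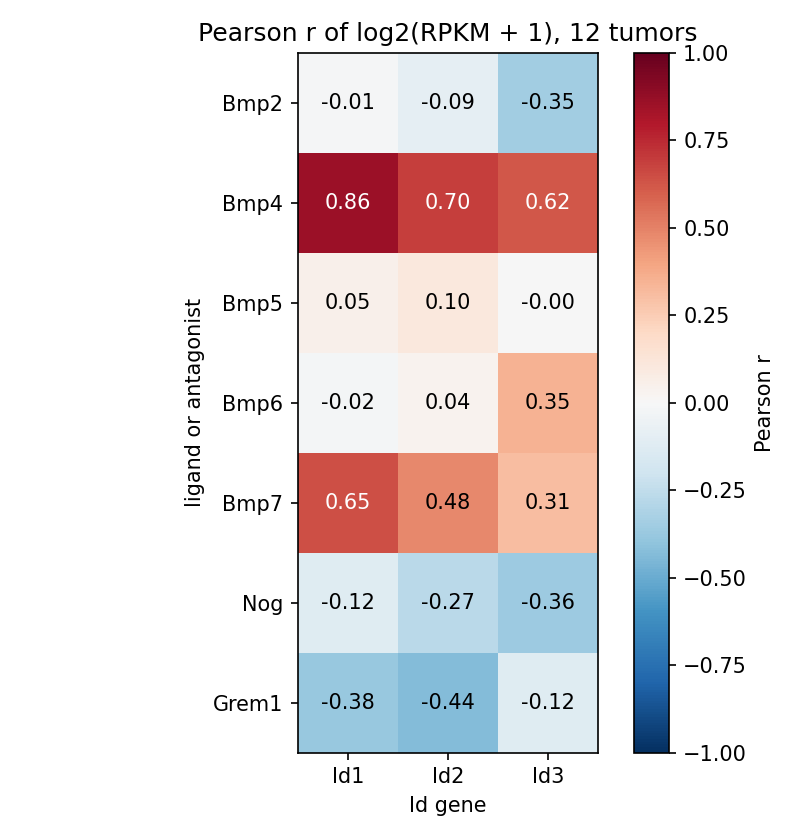
Pearson's r of log2(RPKM + 1) over the 12 tumors for each ligand or antagonist (rows) with each Id gene (columns), coloured from blue (-1) to red (1). The Bmp4 row, from 0.619 to 0.855, and the Bmp7 row, from 0.309 to 0.647, are positive throughout, and the Nog and Grem1 rows are negative throughout. No antagonist pair passed the threshold, and the rho of Nog, not drawn, was 0.049 with Id1 and 0.007 with Id2.

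The Id genes varied together. Over the 12 tumors, r was 0.821 for Id1 with Id2, 0.805 for Id1 with Id3 and 0.823 for Id2 with Id3, each with an adjusted permutation p of 0.0012 over the 3 pairs. Their rho values were 0.727, 0.748 and 0.685, with adjusted permutation p between 0.014 and 0.017. By r all 3 pairs passed in every alternative. By rho none passed when Retro-orbital 2, Retro-orbital 4, Meninges 2 or Vestibular N 1 was left out. Without the 2 tumors farthest in the first gene of a pair none passed by rho either (adjusted permutation p between 0.17 and 0.19). The adjustment covers the 3 pairs only, and these r values were not ranked among all genes. Among the ligands, a regression on Bmp7 gave slopes of 0.897 for Bmp4 (SE 0.290, limma adjusted p = 0.093) and 0.83 for Bmp5 (SE 0.321, limma adjusted p = 0.144), which did not pass. On Grem1, the slope of Bmp5 was -0.642 (SE 0.213, limma adjusted p = 0.199).

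The leukocyte marker sum fell as each Id gene rose, and the epithelial marker sum passed the threshold with Id1 only. No other marker sum had a relation to an Id gene past the threshold with the main settings. Which cells the marker RNA came from was not tested. The summed RPKM of 6 leukocyte markers (Ptprc, Cd68, Csf1r, Itgam, Aif1 and Cd3e) was 173 to 513 in the Retro-orbital tumors, 129 to 169 in the Cheek tumors, 179 to 339 in the Meninges tumors, 96.5 in Vestibular N 1 and 221 in Trigeminal N 1. Of these markers, 5 of 6 were at 1 RPKM or more in all 12 tumors, Cd3e of T cells was under 1 RPKM in 8, and none was at 0. The 3 tumors lowest in every Id gene, Retro-orbital 2 (513 RPKM), Retro-orbital 4 (405 RPKM) and Meninges 2 (339 RPKM), had the 3 highest leukocyte sums, and Vestibular N 1, the highest in every Id gene, had the lowest. Over the 12 tumors r with the leukocyte sum was -0.928 for Id1, -0.874 for Id2 and -0.939 for Id3 (permutation p = 2.0e-05, 0.00019 and 2.0e-05, adjusted 0.00090, 0.0052 and 0.00090 over 90 pairs of marker sums and members). This adjustment covers the 90 pairs only, and all genes were not set against a marker sum alone. The rho values were -0.741, -0.818 and -0.923, of which that of Id3 passed (adjusted permutation p = 0.0063). That call by rho was lost with 1 tumor per identifier code and without the 2 tumors farthest in the sum. Without Retro-orbital 2 and Retro-orbital 4 the r values were -0.862, -0.884 and -0.906, and that of Id3 still passed (adjusted permutation p = 0.024). Bmp4 had r = -0.719 with the leukocyte sum (permutation p = 0.0087, adjusted 0.071).

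Epithelial markers moved the other way. The sum of Krt5, Krt14, Epcam and Cdh1 was 4.54 to 403 RPKM in the Retro-orbital tumors, 58.7 to 360 in the Cheek tumors, 22.5 to 429 in the Meninges tumors, 592 in Vestibular N 1 and 270 in Trigeminal N 1. Krt5 was under 1 RPKM in 4 tumors, Krt14 in 6 and Cdh1 in 2, none of the 4 was at 0, and Epcam, a surface protein of epithelia, ran from 1.60 to 551 RPKM and made up between 2.55% and 98.0% of the sum. The sum had r = 0.859 with Id1 (permutation p = 0.00023, adjusted 0.0052), but the rho of 0.741 did not pass (adjusted permutation p = 0.087). Its r was 0.722 with Bmp4, 0.731 with Bmp7, 0.704 with Id2 and 0.665 with Id3, none of which passed (adjusted permutation p = 0.068, 0.065, 0.079 and 0.12). Without Retro-orbital 2 and Meninges 2, the tumors lowest in the sum, the r with Id1 was 0.641 and did not pass (adjusted permutation p = 0.268). The sum of 8 endothelial markers, from 24.4 to 114 RPKM, gave r = 0.109 with Id1, -0.197 with Id2 and -0.083 with Id3.

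With the log2 leukocyte sum as a second covariate, an alternative chosen after these relations were seen, the slope of Id1 on Bmp4 was 0.253 (SE 0.076, limma adjusted p = 0.455), that of Id2 0.062 (SE 0.094) and that of Id3 -0.045 (SE 0.064). With the epithelial sum in its place the slope of Id1 was 0.320 (SE 0.110, limma adjusted p = 0.733). In neither fit did any of the 15042 genes pass on Bmp4, so the missing call is not particular to Id1. The unadjusted limma p of the Id1 slope on Bmp4 was 0.0062 with the leukocyte sum and 0.013 with the epithelial sum. At an unadjusted p under 0.05 on Bmp4, 1175 and 978 genes passed. In the fit with Bmp4 and the leukocyte sum, the slopes on the leukocyte sum were -1.30 for Id1, -1.05 for Id2 and -1.24 for Id3. None of these passed over all genes (limma adjusted p = 0.161, 0.413 and 0.081). The part of other cell types in the levels of the members was not tested further.

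**Figure D5:**
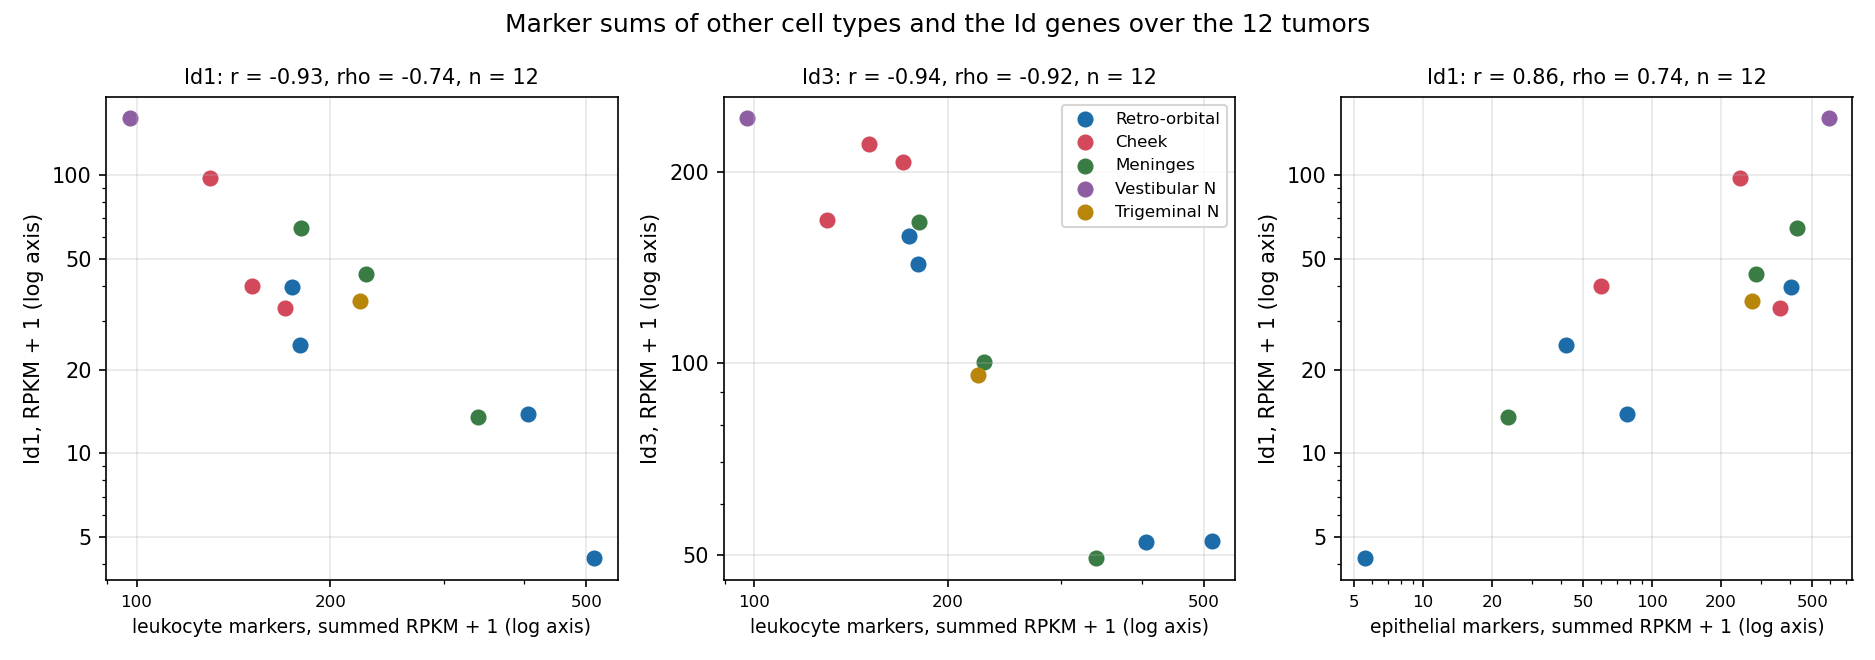
Id1 and Id3 against the summed RPKM of 6 leukocyte markers, and Id1 against the summed RPKM of 4 epithelial markers, each as RPKM + 1 on log axes, with 1 point per tumor coloured by location. Id1 and Id3 fall as the leukocyte sum rises (r = -0.928 and -0.939), and Id1 rises with the epithelial sum (r = 0.859).

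The rest of the pathway was described from a list of 47 genes in 6 roles, of which 35 passed the minimum in the location fit and 0 passed its F test or a pairwise test. The receptors of highest median level were the type I receptor Bmpr1a (34.5 to 94.6 RPKM, median 49.7) and the type II receptor Bmpr2 (19.0 to 32.4 RPKM, median 27.7), which were present in every tumor. Of the Smads, Smad4 was 23.6 to 42.8 RPKM and Smad1 13 to 95.0 RPKM, with the highest Smad1 in Cheek 2. Of the other antagonists, Nbl1 ran from 23.2 to 285 RPKM and Twsg1, which can both hinder and help BMP binding, from 24.6 to 57.1 RPKM. The feedback inhibitors Smurf2 (13.4 to 20.8 RPKM) and Smurf1 (7.11 to 21.1 RPKM) encode ligases that mark Smads for breakdown. Gdf7 (0.07 to 35.5 RPKM) and Gdf6 (0.39 to 15.2 RPKM) were the other ligands with the highest medians, 1.70 and 1.60 RPKM. Of the other targets, Id4 was 0.66 to 82.4 RPKM and Atoh8 0.72 to 15.2 RPKM.

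In the regression on Bmp4, 37 of the 47 pathway genes could be tested and 0 were called, in either direction. Their median slope was 0.022, against 0.029 for all genes. The slopes of Id4 and Atoh8 were 0.543 (SE 0.133, limma adjusted p = 0.108) and 0.416 (SE 0.087, limma adjusted p = 0.067). The 5 other targets had a median slope of 0.197, and the 9 receptors one of -0.047.

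For each member, the 3 genes with the highest r over the 12 tumors among 15020 genes compared were named, as a description without a test. For Bmp4 they were Gm15217 (r = 0.918), Tlcd1 (0.912) and Ceacam19 (0.910). Gm15217 lies at chr14:46379414-46383608 on the opposite strand and overlaps the end of Bmp4, and reads in the overlap can be told apart only if the counting used strand, which the sources used here do not state. Bmp6 likewise overlaps Txndc5 on the opposite strand. For Bmp7 they were Tmem125 (0.957), Fam132b (0.951) and Fam83h (0.948). Grem1 was most like Gsdmd (0.951), Smurf1 (0.928) and Pdgfra (0.925), a receptor kinase of mesenchymal cells that ran from 24.6 to 401 RPKM. The genes nearest to Id1 were Hnrnpa1 (0.953), Ppa1 (0.948) and Ccdc64 (0.939), those nearest to Id2 were Gcfc2 (0.921), Osbpl10 (0.905) and Spry2 (0.895), and those nearest to Id3 were Sptbn1 (0.90), Mnat1 (0.869) and Smurf2 (0.862). Nog was most like Kank3 (0.932), Itgad (0.913) and Il7r (0.905), and Bmp2 most like Sipa1l1 (0.922), Zbtb18 (0.881) and Phf8 (0.881). Bmp5 followed Zbtb7c (0.901), Ntf3 (0.898) and Wls (0.873), and Bmp6 followed Mybph (0.907), Endod1 (0.897) and Tnfrsf26 (0.888).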

How the data were processed

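Total RNA of the 12 tumors was sequenced after ribosomal RNA removal, in a single pool by the study's methods. The authors used STAR for alignment (mm10, unique hits only) and HTSeq for counting on RefSeq genes, and they deposited RPKM values, 1 per gene and tumor. Submitters' processing notes also name bcl2fastq 2.17. The transcript length, the set of reads behind the RPKM and the strand setting are not given in the sources used here.

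Fragment totals were recovered from RPKM steps with GENCODE M21 lengths (GRCm38). RPKM are not counts, so tests used limma 3.58.1 in R 4.3.3 on log2(RPKM + 1) of genes that reached 1 RPKM in 3 tumors or more. The prior variance was trended and robust, with Benjamini-Hochberg adjustment at 0.05. This scale understates changes of low genes. Location fits used the 10 tumors of replicated locations, and regressions all 12. Correlations used permutation tests with 100000 resamples, exact for 9 tumors (Python 3.11.15). Simulated data were used to test the recovery of fragment totals, the limma location F test, the regression on Bmp4 and the correlations. The other steps had no such test.

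The 10 genes, the pathway and marker lists and the tests were chosen with earlier results of these data known. The other named genes are the 2 of highest median RPKM in each pathway role, pathway genes past the location test, the 3 genes most like each member, and Smarcb1. Marker lists covered endothelium, leukocytes, skeletal muscle, astrocytes and oligodendrocytes, neurons, Schwann cells, epithelium, bone-forming cells and arachnoid cells. Other pseudocounts, minimums, scalings, priors and identifier blocks were tried, and each tumor was left out. Of the genes listed, 27 have a date where the symbol should stand and are not named.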

Additional observations from a re-analysis of the deposited data

How the results depend on the processing

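No member passed the location F test in any alternative except Bmp4 and Bmp5 with the identifier code as a random block, among 2802 of 14745 genes. In that fit Bmp4 (-2.49 on the log2 scale), Bmp5 (3.63), Bmp7 (1.61) and Id2 (-0.91) also passed in Meninges minus Cheek (limma adjusted p = 0.0047, 0.0040, 0.043 and 0.026), among 4243 of 14745 genes. The number of genes past the F test, 6, was 10 with no minimum on low values, 3 with a minimum of 5 RPKM, 19 with the plain prior and 2802 with the block, and 0 to 198 with 1 tumor left out (198 without Cheek 1, 56 without Retro-orbital 3, 14 without Retro-orbital 1, and 0 without Cheek 2, Cheek 3 or Meninges 1). For Cheek minus Retro-orbital, 4 became 2 with no minimum, with median-ratio rescaling and with the block (0 to 147 with 1 tumor left out). For Meninges minus Retro-orbital, 3 became 7 with no minimum, 1 with a minimum of 5 RPKM and 6 with the plain prior (0 to 41). For Meninges minus Cheek, 7 became 2 at a pseudocount of 0.1, 18 with no minimum, 1 with a minimum of 5 RPKM, 13 with quantile normalization, 22 with the plain prior and 4243 with the block (0 to 527).

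In the regressions, the 54 genes called on Bmp4 became 0 with no minimum or the block (0 to 51 with 1 tumor left out). The 677 on Bmp7 became 1148 at a pseudocount of 0.1, 264 with quantile normalization and 82 with the block (159 to 870). The 29 on Grem1 became 14, 44 and 0 (1 to 487). Leaving out 1 tumor gave 0 to 4 genes on Bmp2, 0 to 17 on Bmp6 and 0 to 6 on Nog. The slope of Id1 on Bmp4 stayed positive, from 0.460 to 0.666 with 1 tumor left out, 0.557 with no minimum, 0.511 with the block, and 0.253 and 0.320 with the leukocyte and epithelial sums. That of Id3 turned to -0.045 with the leukocyte sum. With 1 tumor per shared code, r of Bmp4 and Id1 was 0.848 and its adjusted p of 0.068 no longer passed. The separation of the Cheek tumors in Id3 was lost with quantile normalization and with median-ratio rescaling, 2 checks added after the data were seen.

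Without the 2 tumors farthest in the ligand or antagonist, r rose past the threshold for Bmp4 with Id2 (0.805), Bmp4 with Id3 (0.778), Bmp7 with Id1 (0.781) and Grem1 with Id3 (-0.778). Of 21 pairs, 11 kept their sign in every alternative. The others turned in at least 1 alternative, and none passed the threshold in an alternative in which its sign had turned. With 1 tumor per code, Bmp2 with Id1 was 0.075 and Bmp5 with Id1 -0.093. Without the 2 farthest tumors, Bmp5 with Id1 was -0.180, Bmp6 with Id1 0.0043 and Bmp6 with Id2 -0.036. Bmp5 with Id3 was 0.088 with quantile normalization, and Bmp6 with Id1 0.024 at a pseudocount of 0.1 and 0.0071 with median-ratio rescaling. With 1 tumor left out, r ran from -0.160 to 0.107 (Bmp2 with Id1), -0.271 to 0.108 (Bmp2 with Id2), -0.097 to 0.382 (Bmp5 with Id1), -0.105 to 0.244 (Bmp5 with Id2), -0.182 to 0.164 (Bmp5 with Id3), -0.427 to 0.199 (Bmp6 with Id1), -0.150 to 0.278 (Bmp6 with Id2), -0.348 to 0.078 (Grem1 with Id3), -0.503 to 0.206 (Nog with Id1) and -0.613 to 0.011 (Nog with Id3). The cause of these changes was not tested. The identifier code is shared by 3 pairs of tumors, of which 1 lies in 2 of the replicated locations. In the limma fits it was used only as a random block, and in the correlations 1 tumor per code was kept as an alternative. The labels give no replicate numbers. Few fragments limit the low values of Bmp5, Bmp7 and Grem1.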

Other observations

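Of the other marker sums set against the members, that of bone-forming cells (Bglap, Ibsp, Sp7 and Alpl, 1.54 to 216 RPKM in sum) had r = 0.789 with Bmp7 (permutation p = 0.0019, adjusted 0.034 over the 90 pairs), while the rho of 0.818 did not pass (adjusted permutation p = 0.058), and r = 0.735 with Bmp4 (adjusted permutation p = 0.065). Bglap reached 1 RPKM in 1 tumor and was at 0 in 4, and Ibsp reached 1 RPKM in 2. Sp7 did so in 10 tumors and Alpl in 9. Ibsp alone was 189 RPKM in Cheek 1, the tumor with the sum of 216 RPKM. With 1 tumor per identifier code the r of the sum with Bmp7 was 0.842 (exact permutation p = 0.0025, adjusted 0.044), and without Cheek 1 and Retro-orbital 3 it was 0.875 (adjusted permutation p = 0.062). By rho, 1 of the 90 pairs passed, the leukocyte sum with Id3, against 0 with 1 tumor per identifier code and 0 without the 2 tumors farthest in the sum. Sums for skeletal muscle (4.85 to 459 RPKM), astrocytes and oligodendrocytes (1.05 to 387 RPKM), neurons (11.4 to 52.9 RPKM), Schwann cells (4.31 to 36.3 RPKM) and arachnoid cells (4.44 to 90.3 RPKM) had no relation to a member past the threshold with the main settings. Nearest by r were skeletal muscle with Bmp2 (-0.781, adjusted permutation p = 0.053) and astrocytes and oligodendrocytes with Bmp7 (0.766, 0.057). By r, 5 of the 90 pairs passed, against 8 at a pseudocount of 0.1 and 7 with 1 tumor per identifier code. With 1 tumor left out 3 to 8 passed, and 1 without the 2 tumors farthest in the sum. The part of these cell types in the levels of the members was not tested further.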
